A study of Rattus with 6 samples.

Results

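Histone genes were followed in rat cardiac fibroblasts grown in culture, the cells that lay down the heart's matrix, after knockdown of NONO, a nuclear RNA- and DNA-binding protein. Members were chosen by name: protein-coding genes of the deposited count table whose symbol begins like that of a histone gene (Hist1h, H1f, H2a, H2b, H3c, H3f, H4c, H4f, Macroh2a and the like). There were 49 of them among 21378 genes. By their symbols, 36 belong to the replication-dependent class and 13 to the variant class.

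The study compared 3 libraries titled siCtrl with 3 titled siNONO, all from 1 purchased rat cardiac fibroblast line. Cells of the siNONO group received an siRNA against Nono by lipofection. The controls are titled siCtrl, while another label describes them as given an empty vector, so their exact treatment is not settled here. A harvest at 48 h is stated for RT-qPCR and western blotting, and no separate time is given for sequencing. Nothing in the labels says whether the 3 libraries of a group came from separate cultures, so the p-values reflect no more than the scatter among the 6 libraries, which may be technical.

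Histones package DNA into nucleosomes: the core histones H2A, H2B, H3 and H4 form the particle, and linker histone H1 binds the DNA between particles. Replication-dependent histones are encoded by many near-identical, intronless genes in a few clusters, are made mainly in S phase, and have mRNAs that normally end in a stem-loop instead of a poly(A) tail. Variant histones such as H3.3, H2A.Z and macroH2A are encoded by few genes each, are made throughout the cell cycle and have polyadenylated mRNAs. Replication-dependent genes can also give polyadenylated transcripts, which are known from differentiated and non-dividing cells and rise when stem-loop processing fails. These libraries were poly(A)-selected, so for replication-dependent genes they counted mainly whatever share of transcripts carried a poly(A) tail, and a value here is not the total histone mRNA of the cell.

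Total counts ranged from 27792357 to 33365588 per library. A count of 0 therefore allows up to 3 counts, or 0.0899 to 0.108 CPM (counts scaled to the same library total, for single genes with edgeR's TMM factors), which covers counting error only. Nono fell from 239 ± 7.15 to 73.2 ± 3.15 CPM (SD, n = 3 in each group), with a permutation p of 0.1 (exact, two-sided; 3 against 3 libraries cannot go lower). Over all tested genes, edgeR's quasi-likelihood test called 16.2% raised and 15.9% lowered, which is the background for the marker counts that follow. Fibroblast markers were strongly expressed: all 11 were tested, 1 was raised and 5 were lowered, with a summed level of 35895 to 38627 CPM in siCtrl and 34620 to 35538 CPM in siNONO. Of 8 macrophage and leukocyte markers, 6 were tested and 3 of these were lowered, and the summed level of the list was 1234 to 1406 CPM in siCtrl and 1175 to 1263 CPM in siNONO. Of 7 cardiomyocyte markers, Myh7 and Nppa were absent from the counts and 2 were tested. Actn2 and Ryr2 had at most 3 counts in every library, and Tnnt2 was lowered (log2 fold change -0.45 ± 0.05, SE). The list summed to 143.0 to 159 CPM in siCtrl and 107 to 116 CPM in siNONO. Most of this was Tnnt2, with means of 152 CPM in siCtrl and 112 CPM in siNONO. The 6 endothelial markers summed to 17.5 to 18.7 CPM in siCtrl and 19.6 to 20.9 CPM in siNONO, with 1 of 5 tested raised. The 6 smooth muscle and pericyte markers summed to 76.1 to 84.5 and 62.1 to 67.1 CPM, with 4 of 5 tested lowered and Rgs5 at 3 counts or fewer in every library. The part of these other cell types in the histone results was not tested, and in bulk RNA a change in the number of cells of a type cannot be told apart from a change in RNA per cell.

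Most replication-dependent histone transcripts that could be tested were higher after NONO knockdown, while variant histones had a median change close to 0. Differences were tested with edgeR's quasi-likelihood test on the counts, with Benjamini-Hochberg adjustment over the 14412 genes tested and a threshold of 0.05 on the adjusted p. Of the 49 histone genes, 29 had enough counts to be tested. Of these, 18 were raised and 1 was lowered, against backgrounds of 16.2% of all tested genes raised and 15.9% lowered (32.1% called in either direction). Of the 18 replication-dependent genes tested, 13 were raised, 0 were lowered and 5 did not pass, with a median log2 fold change (siNONO minus siCtrl) of 0.88. Of the 11 variant genes tested, 5 were raised, 1 was lowered and 5 did not pass, with a median of 0.07. The median over all tested genes was 0.00.

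The filter on low counts shaped which replication-dependent genes were tested. Of the 18, Hist1h2bd, Hist1h2bl and Hist2h2aa2 reached its level in all 3 siNONO libraries but not in all siCtrl libraries, and H1f4 did so in the siCtrl libraries only. Taking only genes with a mean of at least 1 CPM over all libraries, 9 of 10 replication-dependent genes were raised, against 17.7% of all genes at that level. The remaining 18 replication-dependent genes were not tested: Hist1h2bo, Hist1h2ai, Hist1h2af, H1f1, H1f6, Hist3h2ba, Hist1h2ah, Hist1h3b, H1f5, Hist1h2an, Hist1h2bg, Hist1h4m, H3c1, Hist2h4, H2ac20, Hist1h2ak, Hist2h3c2 and H2ac12. Together they held 1.58, 2.34 and 2.25 CPM of all counts in siCtrl replicates 1 to 3 in order, and 2.42, 1.91 and 3.72 CPM in those of siNONO. The groups overlapped in that sum and in 14 of these genes taken singly, while 3 lay wholly above and 1 wholly below at very low counts. H1f6, a testis linker histone gene, had 0, 2 and 6 counts in siCtrl and 8, 8 and 10 in siNONO. Hist1h2ah had 2, 2 and 4 counts against 5, 7 and 8, Hist2h3c2 1, 0 and 1 against 2, 2 and 2, and H1f5 4, 4 and 7 against 2, 4 and 4. With no filter none of the 18 passed edgeR's test, and on the log2(FPKM + 1) scale without a filter limma called Hist1h2ah (adjusted p = 0.0169) and H1f6 (0.0461) raised.

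**Figure D1:**
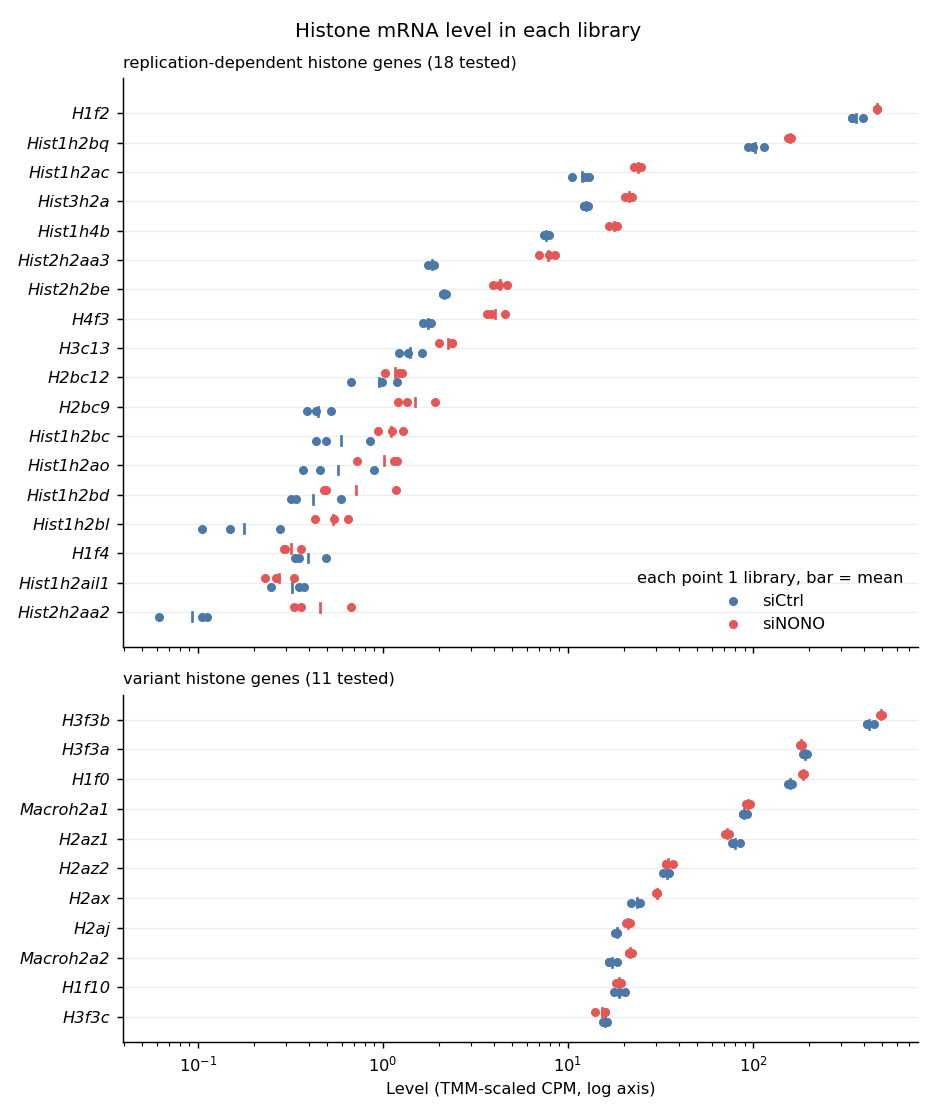
Level of each tested histone gene in each library, in CPM scaled by TMM on a log axis, with 1 point per library and a bar at the group mean. Among the replication-dependent genes the siNONO points lie to the right of the siCtrl points for 13 of 18, beside 22.9% of all tested genes. The variant genes, all above 14 CPM, show small shifts in both directions.

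H1f2 (gene-H1f2, chromosome 17), which encodes linker histone H1.2, was at 394, 342 and 342 CPM in the siCtrl libraries and at 469, 469 and 466 CPM in the siNONO libraries, with values here and below in the order of replicates 1, 2 and 3. Every siNONO library was above every siCtrl library, and siCtrl replicate 1 was the highest control. The log2 fold change was 0.38 ± 0.05 (SE; edgeR adjusted p = 8.71e-05). H1f2 alone made up 70.8% ± 0.368 of the class's counts in the siCtrl libraries and 65.3% ± 0.611 in the siNONO libraries (SD, n = 3 each), so its share of the class was smaller in siNONO although its level was higher.

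The gene with the symbol H4f3 (chromosome 17) is described in the deposited table as the linker histone H1.3, and its identity is therefore uncertain. It was at 1.64, 1.83 and 1.76 CPM in siCtrl and at 3.82, 3.67 and 4.57 CPM in siNONO, with no overlap. It rose by 1.20 ± 0.15 on the log2 scale (edgeR adjusted p = 4.32e-05). H1f4, which encodes H1.4, had 0.394 ± 0.0873 CPM in siCtrl and 0.317 ± 0.0385 CPM in siNONO and did not pass (log2 fold change -0.33 ± 0.34).

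Among genes for the core histone H2A, 4 of 6 tested rose, beside 16.2% raised over all tested genes. The 4 include Hist2h2aa2, which met the filter in the siNONO libraries only. Hist2h2aa3 (chromosome 2) showed the largest change among class members with a mean of at least 1 CPM: 1.90, 1.86 and 1.76 CPM in siCtrl against 6.98, 7.86 and 8.55 CPM in siNONO. Its log2 fold change was 2.09 ± 0.13 (edgeR adjusted p = 8.67e-08), a 4.24-fold rise, and the controls varied by a fraction of that step. Hist1h2ac (chromosome 17) went from 13.03, 10.6 and 12.3 CPM to 22.9, 25.0 and 24.1 CPM, or 1.01 ± 0.08 on the log2 scale (edgeR adjusted p = 5.03e-07). Hist3h2a, an H2A gene of the small cluster on chromosome 10, went from 12.8, 12.2 and 12.3 CPM to 20.2, 22.2 and 21.4 CPM, or 0.77 ± 0.07 on the log2 scale (edgeR adjusted p = 1.15e-06). In all 3 genes the groups were far apart compared with their spread.

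Hist2h2aa2 (chromosome 2), a near copy of Hist2h2aa3 by name, had very few reads: 3, 3 and 2 counts in siCtrl and 10, 12 and 23 counts in siNONO. The sums of 8 and 45 counts gave a ratio of 5.05 after scaling (exact 95% counting interval 2.35 to 12.4). Its edgeR adjusted p was 0.00299. Hist2h2aa2 met the filter in the siNONO libraries only, so its being tested depended on the group where it was high. The interval covers counting error only, not the spread between libraries. Hist1h2ao was at 0.574 ± 0.280 CPM in siCtrl and 1.02 ± 0.256 CPM in siNONO, with groups that overlapped, and did not pass (log2 fold change 0.85 ± 0.33; edgeR adjusted p = 0.0660). It did pass when siCtrl replicate 1 was left out (log2 fold change 1.29; adjusted p = 0.0108), and when siNONO replicate 2 was (1.04; 0.0370). Hist1h2ail1 was at 0.324 ± 0.0673 CPM in siCtrl and 0.275 ± 0.0513 CPM in siNONO and did not pass.

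Of the genes for H2B, the partner of H2A in the nucleosome, 5 of 7 tested rose, beside 16.2% raised over all tested genes. The 5 include Hist1h2bl, which met the filter in the siNONO libraries only. Hist1h2bq (chromosome 17) was the most abundant, at 114, 100.4 and 93.6 CPM in siCtrl and 154, 159 and 160 CPM in siNONO. As for H1f2, siCtrl replicate 1 was the highest control and all siNONO libraries lay above it. The log2 fold change was 0.62 ± 0.06 (edgeR adjusted p = 4.25e-06). Hist2h2be (chromosome 2) went from 2.12, 2.11 and 2.19 CPM to 4.67, 3.91 and 4.25 CPM, or 0.99 ± 0.14 on the log2 scale (edgeR adjusted p = 9.02e-05). H2bc9 (chromosome 17) went from 0.521, 0.387 and 0.432 CPM to 1.91, 1.20 and 1.35 CPM, or 1.72 ± 0.28 on the log2 scale (edgeR adjusted p = 0.000311). All siNONO libraries exceeded all controls in both genes.

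The other H2B genes were close to the depth limit. Among them, Hist1h2bl met the filter in the siNONO libraries only, so its being tested depended on the group where it was high. The interval given for its counts covers counting error only, not the spread between libraries. Hist1h2bl had 16 counts over the siCtrl libraries and 53 over the siNONO libraries, a ratio of 2.97 (exact 95% counting interval 1.67 to 5.57; edgeR adjusted p = 0.00881). Hist1h2bc went from 0.594 ± 0.229 to 1.11 ± 0.173 CPM (log2 fold change 0.92 ± 0.29; edgeR adjusted p = 0.0250). It no longer passed when siCtrl replicate 2 (adjusted p = 0.0819), siCtrl replicate 3 (0.114), siNONO replicate 1 (0.0999) or siNONO replicate 2 (0.0574) was left out. H2bc12 (0.30 ± 0.25) and Hist1h2bd (0.81 ± 0.41) overlapped between groups and did not pass, and the higher mean of Hist1h2bd in siNONO came from replicate 3, at 1.17 CPM against 0.494 and 0.482 CPM in the other siNONO libraries.

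For H3 and H4, which form the core tetramer of the nucleosome, 1 gene each was tested. Each rose, beside 16.2% raised over all tested genes. H3c13 (chromosome 17) went from 1.23, 1.62 and 1.36 CPM to 2.01, 2.35 and 2.37 CPM, or 0.68 ± 0.18 on the log2 scale (edgeR adjusted p = 0.0110). Hist1h4b (chromosome 17) went from 7.93, 7.46 and 7.50 CPM to 18.5, 16.7 and 18.1 CPM, or 1.22 ± 0.08 on the log2 scale (edgeR adjusted p = 7.94e-08). Its controls spread far less than this step, and the groups were well apart.

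**Figure D2:**
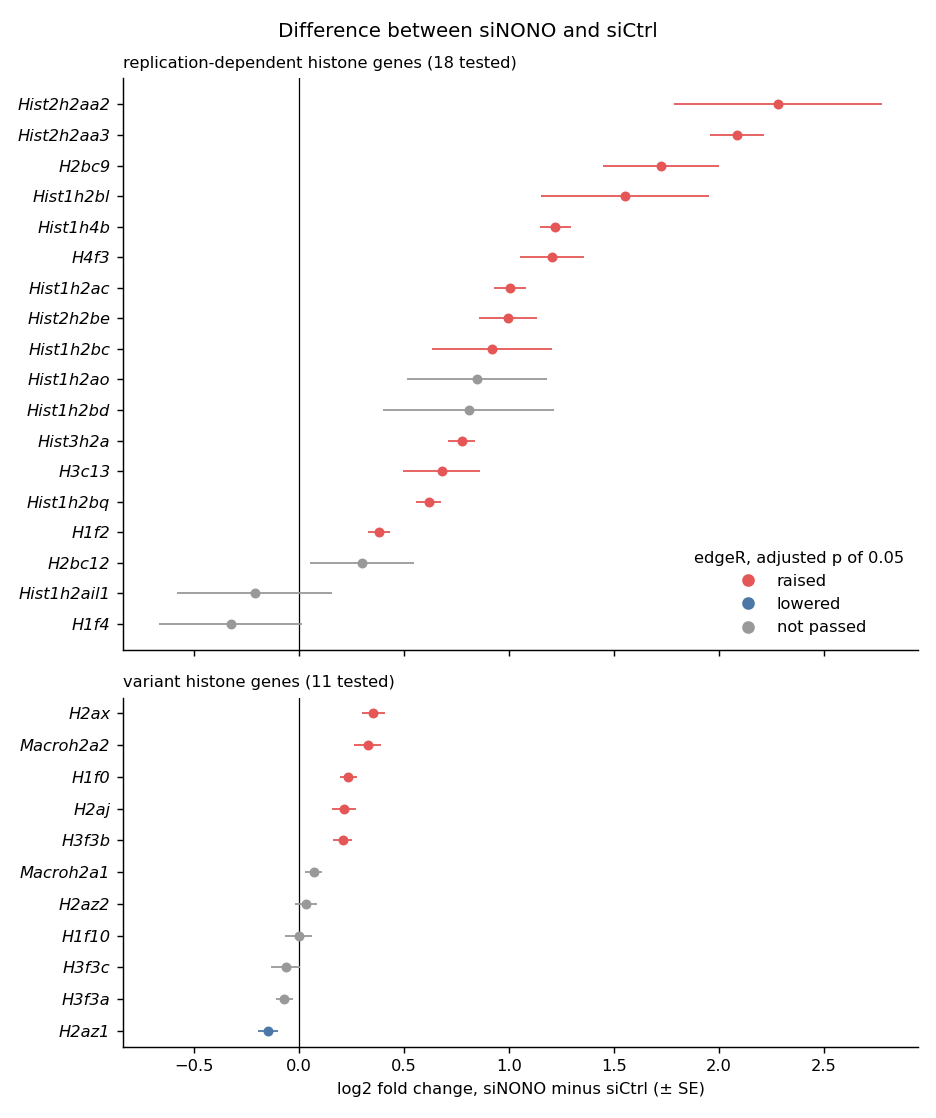
Log2 fold change of each tested histone gene, siNONO minus siCtrl, with its standard error, coloured by the call of edgeR at an adjusted p of 0.05. The replication-dependent genes that were raised run from 0.38 (H1f2) to 2.28 (Hist2h2aa2), whereas the variant genes lie between -0.15 (H2az1) and 0.35 (H2ax).

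Because near-identical copies can share reads, counts were also summed by protein over all replication-dependent genes, untested ones included. Summed H2A counts were 28.9, 26.2 and 27.5 CPM of all counts in siCtrl and 53.9, 57.4 and 58.7 in siNONO, a ratio of 2.06 between the means. Summed H2B counts had a ratio of 1.61, from 106 ± 9.50 to 170 ± 3.34 CPM. Summed H4 counts had a ratio of 2.37 (7.70 ± 0.167 to 18.2 ± 1.13), H3 counts 1.67 (1.58 ± 0.244 to 2.64 ± 0.156) and linker H1 counts, H4f3 included, 1.35 (355 ± 23.9 to 481 ± 4.44). These sums carry no test and do not show that all 36 genes moved together, since several rest largely on their most abundant gene. In siNONO, Hist1h4b was at 17.8, H1f2 at 468 and Hist1h2bq at 158 CPM (TMM-scaled). Hist1h4m and Hist2h4, the untested H4 genes, had lower means in siNONO than in siCtrl, with groups that overlapped. Among these sums of poly(A)-selected reads, those of H4 and H2A had the widest steps and that of H1 the narrowest.

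In all, the replication-dependent genes took 537, 483 and 474 CPM of all counts in siCtrl and 729, 722 and 737 in siNONO, which is a ratio of 1.46. Without H1f2 the sums were 156, 143 and 137 against 249, 250.2 and 260.3, a ratio of 1.74. The variant genes took 1069, 1039.9 and 1047 CPM in siCtrl and 1189, 1188 and 1185 in siNONO, a ratio of 1.13. The controls spread more than the knockdown libraries in each of these sums.

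Reads of other RNAs that normally lack a long poly(A) tail are given beside these sums, since poly(A) selection captures them only in part. They were chosen after earlier results were known. Mitochondrial rRNA (mt-Rnr1 and mt-Rnr2) took 1176, 1027 and 1086 CPM in siCtrl and 1824, 1828 and 2015 in siNONO, a ratio of 1.72, and both genes rose (0.73 ± 0.07 and 0.73 ± 0.05 on the log2 scale). The cytoplasmic rRNA precursor Rn45s varied widely, with 1589, 1434 and 2046 CPM in siCtrl and 1015, 498 and 1944 in siNONO, and did not pass (-0.61 ± 0.31). The siNONO library with the least Rn45s, replicate 2, had 722 CPM of replication-dependent histone reads, and the one with the most, replicate 3, had 737. H1f2 made up 65.3% of these reads in siNONO. The 18 untested replication-dependent genes held 2.42, 1.91 and 3.72 CPM in siNONO, in the same order as Rn45s. In siCtrl they held 1.58, 2.34 and 2.25 CPM, in another order than Rn45s, and replicate 2, with the least Rn45s, held the most. Small nuclear RNA genes took 5.18 ± 0.647 and 5.82 ± 3.10 CPM in siCtrl and siNONO, and small nucleolar RNA genes 48.1 ± 4.46 and 50.3 ± 3.14. Any link between these RNAs and the histone results was not tested.

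**Figure D3:**
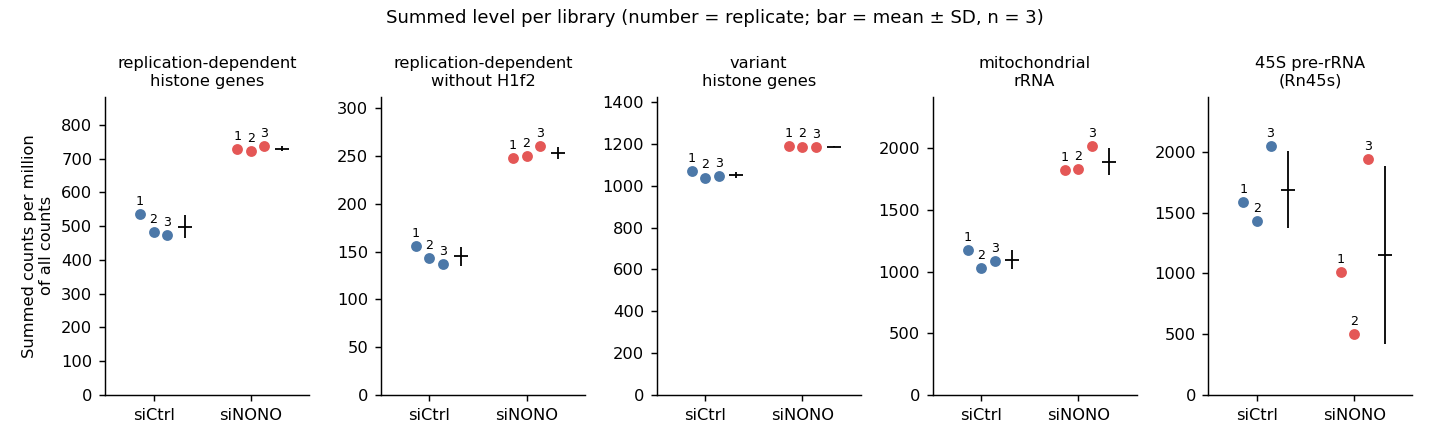
Summed CPM of all counts in each library for replication-dependent histone genes, the same without H1f2, variant histone genes, mitochondrial rRNA and the 45S rRNA precursor, with the replicate number at each point and the mean ± SD beside it. Replication-dependent histone reads (474 to 537 in siCtrl, 722 to 737 in siNONO) and mitochondrial rRNA are higher in all siNONO libraries, while Rn45s ranges from 498 to 1944 within the siNONO group.

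The H3.3 genes H3f3a and H3f3b, which encode the replacement histone H3.3, included the 2 most abundant variants, of which H3f3b passed the test and H3f3a did not. H3f3b (chromosome 10) was at 451, 415 and 411 CPM in siCtrl and 490, 499.8 and 484 CPM in siNONO and rose by 0.21 ± 0.04 on the log2 scale (edgeR adjusted p = 0.00266). H3f3a (chromosome 13) was at 189, 187 and 196 CPM in siCtrl and 180, 183 and 183 CPM in siNONO, a log2 fold change of -0.07 ± 0.04 that did not pass (edgeR adjusted p = 0.207), although the groups did not overlap. The difference between the 2 genes was not tested. H3f3c, an H3.3 family gene that may share reads with them, did not pass (-0.06 ± 0.07).

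Linker histone variants were H1f0 and H1f10. H1f0 (chromosome 7), which encodes H1.0, the linker histone that accumulates in non-dividing and differentiated cells, went from 162, 154 and 157 CPM to 188, 186 and 183 CPM. It rose by 0.23 ± 0.04 (edgeR adjusted p = 0.000467), and its groups were clear of each other. H1f10 was at 19.0 ± 1.26 CPM in siCtrl and 18.9 ± 0.600 CPM in siNONO (SD, n = 3 each), with a log2 fold change of -0.001 ± 0.07. The oocyte linker histone gene H1f8 and the H3.4 gene H3f4 had at most 2 counts in any library and were not tested.

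H2ax and H2aj, both H2A variants, rose. H2ax (chromosome 8) encodes H2A.X, which is phosphorylated around DNA double-strand breaks, and its gene is known to give both stem-loop and polyadenylated mRNAs. It was at 24.2, 24.5 and 22.0 CPM in siCtrl and 30.4, 30.2 and 29.8 CPM in siNONO, or 0.35 ± 0.06 on the log2 scale (edgeR adjusted p = 0.000272). H2aj (chromosome 4), which encodes H2A.J, went from 18.4, 18.4 and 18.1 CPM to 20.7, 21.7 and 21.2 CPM (0.21 ± 0.06; edgeR adjusted p = 0.0106). Neither gene's groups overlapped, and the controls of H2aj were close to each other.

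H2A.Z and macroH2A, exchanged into nucleosomes at promoters and on silent chromatin respectively, are each encoded by a pair of genes. H2az1 (chromosome 2) was at 85.2, 76.8 and 78.1 CPM in siCtrl and 74.1, 71.8 and 70.8 CPM in siNONO and fell by 0.15 ± 0.05 on the log2 scale (edgeR adjusted p = 0.0321). This call rested on small margins: leaving out siCtrl replicate 1 ended it (log2 fold change -0.10; adjusted p = 0.103), as did leaving out siNONO replicate 1 (0.0581), 2 (0.0688) or 3 (0.109), and correcting for gene length (-0.05; adjusted p = 0.328). H2az2 did not pass (0.03 ± 0.05). Macroh2a2 (chromosome 20) went from 16.6, 16.6 and 18.5 CPM to 21.3, 21.4 and 22.2 CPM, with no overlap, and rose by 0.33 ± 0.06 (edgeR adjusted p = 0.00133). Macroh2a1, the more abundant of the pair, was at 89.9 ± 2.18 and 94.3 ± 2.25 CPM and did not pass (0.07 ± 0.04), though it did with scaling to total library size (0.12; adjusted p = 0.0432).

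Every siNONO library exceeded every siCtrl library for 13 of the 18 tested replication-dependent genes and for 5 of the 11 variant genes, and 0 and 2 genes lay wholly below, where 22.9% of all tested genes lay above and 22.1% below. The variants wholly below were H2az1 and H3f3a. The 13 include Hist2h2aa2 and Hist1h2bl, which met the filter in the siNONO libraries only. Of the 10 replication-dependent genes with a mean of at least 1 CPM, 9 lay wholly above, beside 3110 of all 12780 genes at that level.

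Abundance is given elsewhere in CPM or counts, which are not scaled to gene length. Here levels were compared between genes per length, as FPKM. In siCtrl the highest were H3f3b (229 ± 8.85 FPKM), H1f2 (213 ± 14.7), H3f3a (156 ± 4.78), Hist1h2bq (96.6 ± 8.82), H2az1 (88.3 ± 3.76) and H1f0 (75.6 ± 0.750). H3f3b and H1f2 differed by about their spread, as did Hist1h2bq and H2az1. Replication-dependent genes other than H1f2 and Hist1h2bq were at 9.76 ± 0.923 FPKM (Hist1h2ac) or below. In siNONO, H1f2 (287 ± 1.85 FPKM) stood above H3f3b (274 ± 2.93), and Hist2h2aa3 moved from 3.13 ± 0.114 to 13.7 ± 1.39 FPKM, next to Hist3h2a (12.6 ± 0.505) and Hist1h4b (12.7 ± 0.730).

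The length of each gene model, recovered from counts and FPKM, is given because stem-loop histone transcripts are short. The 13 raised replication-dependent genes had lengths of 578 to 5587 nt (median 1658), and the 5 that did not pass had lengths of 420 to 727 nt (median 430). The genes that did not pass also had means of at most 1.06 CPM. The part of length and of depth in these calls was not tested. Over all tested genes, those shorter than 1000 nt had a median log2 fold change of -0.12, with 6.43% raised and 27.1% lowered, and those of 4000 nt or more had a median of 0.03. The median of the replication-dependent histone genes, 0.88, covers genes both shorter and longer than 1000 nt, so it is not matched in length to that of short genes. With a correction for length the histone median was 0.99, with 14 genes raised.

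**Figure D4:**
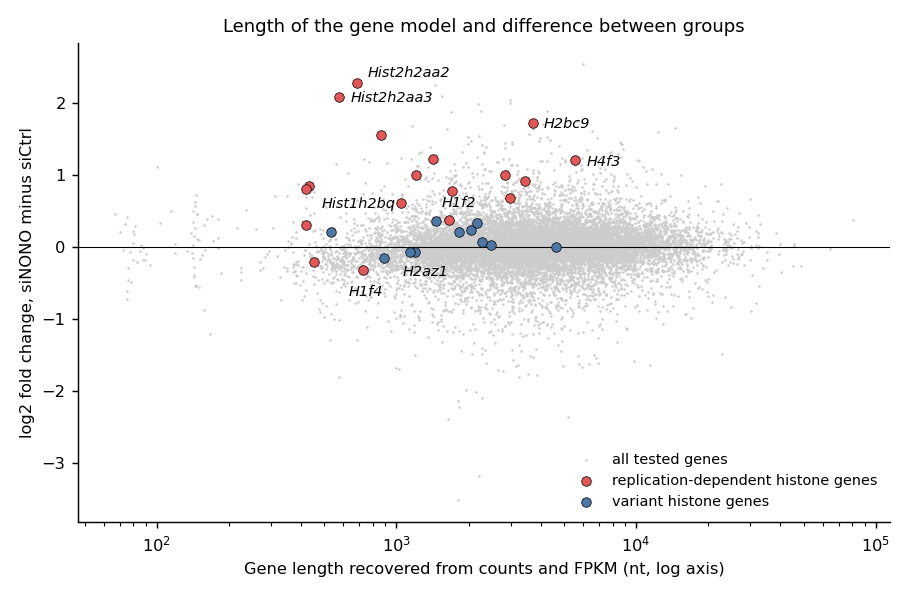
Log2 fold change, siNONO minus siCtrl, against gene length recovered from counts and FPKM on a log axis, for all tested genes (grey) and the tested replication-dependent (red) and variant (blue) histone genes. Short genes as a whole lie slightly below 0, while most replication-dependent histone genes lie above it at lengths from 420 to 5587 nt.

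Raised genes stood in all 3 regions that hold replication-dependent genes in the table. On chromosome 17, which carries the main cluster, 9 of 14 tested genes were raised, on chromosome 2 it was 3 of 3 and on chromosome 10 it was 1 of 1, beside 16.2% over all tested genes. The 3 raised on chromosome 2 include Hist2h2aa2, and the 9 raised on chromosome 17 include Hist1h2bl. Both genes met the filter in the siNONO libraries only. Of the 29 tested members, 26 were matched by symbol to RefSeq's table for GRCr8, a later build than that of the counts, which was used only for the order of genes. In that order H2bc9, Hist1h2ac, Hist1h4b and H2bc12 follow each other, with log2 fold changes of 1.72, 1.01, 1.22 and 0.30, and Hist2h2be adjoins Hist2h2aa2. Hfe, an iron-regulating gene that lies between H1f2 and Hist1h2bq, had a log2 fold change of 0.04 ± 0.14, and Abt1, another non-histone gene of the region, 0.08 ± 0.07; neither passed. Whether reads of adjoining histone genes were assigned by strand is not given in the sources used here, so neighbours may share some of their counts.

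Histone genes that the symbol rule missed were looked up by their description, a choice made after values were seen. There were 17, of which 7 were tested, 3 were raised and 0 lowered, where 16.2% and 15.9% of all tested genes were. The raised genes were the H2B-like LOC100912338 (1.19 ± 0.22) and the H4-like genes LOC102551184 (1.13 ± 0.22) and LOC102548682 (1.01 ± 0.24). The 4 others did not pass. They were the H2B-like LOC100910200 (0.65 ± 0.25) and LOC102549061 (-0.07 ± 0.27), the H3.2-like LOC102549173 (0.10 ± 0.27) and the H3.3B-like LOC100359421 (-0.16 ± 0.18). Cenpa, which encodes the centromeric H3 variant, went from 3.95, 3.98 and 4.01 CPM in siCtrl to 6.19, 5.36 and 7.24 CPM in siNONO and rose by 0.65 ± 0.13 (edgeR adjusted p = 0.00131).

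Most genes that make and trim the 3′ end of histone mRNAs, like most tested genes, did not pass the test. Of 31 tested genes for histone mRNA 3′ end processing and decay, 7 were raised (22.6%) and 3 lowered (9.68%), beside 16.2% and 15.9% over all tested genes, with a median log2 fold change of 0.05. Slbp, whose protein binds the histone stem-loop, was at 26.8, 24.9 and 26.6 CPM in siCtrl and 23.8, 25.1 and 25.6 CPM in siNONO and did not pass (-0.07 ± 0.06). Npat, the coactivator of histone gene transcription at S phase, did not pass either (0.04 ± 0.07). Cpsf2, a subunit of the cleavage complex that also cuts histone pre-mRNA, rose by 0.45 ± 0.06 (26.5 ± 1.73 to 36.3 ± 2.51 CPM), and the 5′ exonuclease gene Xrn1 rose by 0.37 ± 0.06. Ncbp2, a subunit of the cap-binding complex, had -0.20 ± 0.04 and the exosome subunit gene Exosc4 -0.23 ± 0.07. Exosc4 no longer passed when siCtrl replicate 3 (adjusted p = 0.0915), siNONO replicate 1 (0.0609) or siNONO replicate 2 (0.0699) was left out.

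Histone chaperones carry histones to and from DNA. The 31 tested included 5 raised (16.1%) and 4 lowered genes (12.9%), close to the 16.2% and 15.9% over all tested genes, and their median was 0.02. The paralogs of the H3-H4 chaperone ASF1 moved in opposite directions: Asf1a dropped from 19.1 ± 0.628 to 12.9 ± 0.364 CPM (log2 fold change -0.57 ± 0.06; edgeR adjusted p = 1.65e-05), and Asf1b, known to follow proliferation, rose from 2.62 ± 0.217 to 3.60 ± 0.336 CPM (0.46 ± 0.14; edgeR adjusted p = 0.0233). Asf1b no longer passed when siCtrl replicate 3 (adjusted p = 0.0934) or siNONO replicate 1 (0.104) was left out. Nap1l5, a nucleosome assembly protein-like gene, fell by 2.10 ± 0.40 on the log2 scale, from 0.968 ± 0.402 to 0.223 ± 0.0888 CPM. It reached the filter's level in all siCtrl libraries but not in all siNONO libraries, so it was tested through its level in siCtrl. Mcm2, a helicase subunit that also binds H3-H4, rose by 0.33 ± 0.06.

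Most genes for H2A.Z exchange, like most tested genes, did not pass the test. The 23 tested included 2 raised genes (8.70%) and 1 lowered gene (4.35%), beside 16.2% and 15.9% over all tested genes, and their median was -0.02. Anp32e, whose protein removes H2A.Z from nucleosomes, fell from 58.5 ± 2.04 to 43.9 ± 0.595 CPM (log2 fold change -0.42 ± 0.05; edgeR adjusted p = 1.09e-05). The helicase gene Ruvbl2 (0.20 ± 0.05) and the INO80 subunit gene Ino80e (0.19 ± 0.05) were raised, and the calls of both ended without siNONO replicate 3 (adjusted p = 0.0581 and 0.0565), as did that of Ruvbl2 without siCtrl replicate 3 (0.0589).

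S-phase and proliferation genes, with which replication-dependent histone mRNAs are normally made, had a median above that of all genes. The 35 tested included 7 raised genes (20%, near the 16.2% over all tested genes) and 1 lowered gene (2.86%, against 15.9%), and their median was 0.17, against 0.88 for the replication-dependent histone genes. The summed level of the list was 390.4 to 407 CPM in siCtrl and 431 to 438 CPM in siNONO. Mcm10, a replication initiation factor, had 0.49 ± 0.16 (2.17 ± 0.273 to 3.04 ± 0.327 CPM) and Top2a, the topoisomerase of dividing cells, 0.37 ± 0.11. Tyms, thymidylate synthase, fell by 0.22 ± 0.06 (35.9 ± 3.14 to 30.9 ± 0.438 CPM). Leaving out 1 library at a time left 4 to 6 of the 35 raised; Mcm10 did not pass when leaving out siCtrl replicate 2 (adjusted p = 0.0626), siCtrl replicate 3 (0.114), siNONO replicate 2 (0.0964) or siNONO replicate 3 (0.0897), and Top2a when leaving out siCtrl replicate 1 (0.0651), siCtrl replicate 3 (0.0594) or siNONO replicate 3 (0.0885). The part of cell cycle activity in the histone result was not tested.

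**Figure D5:**
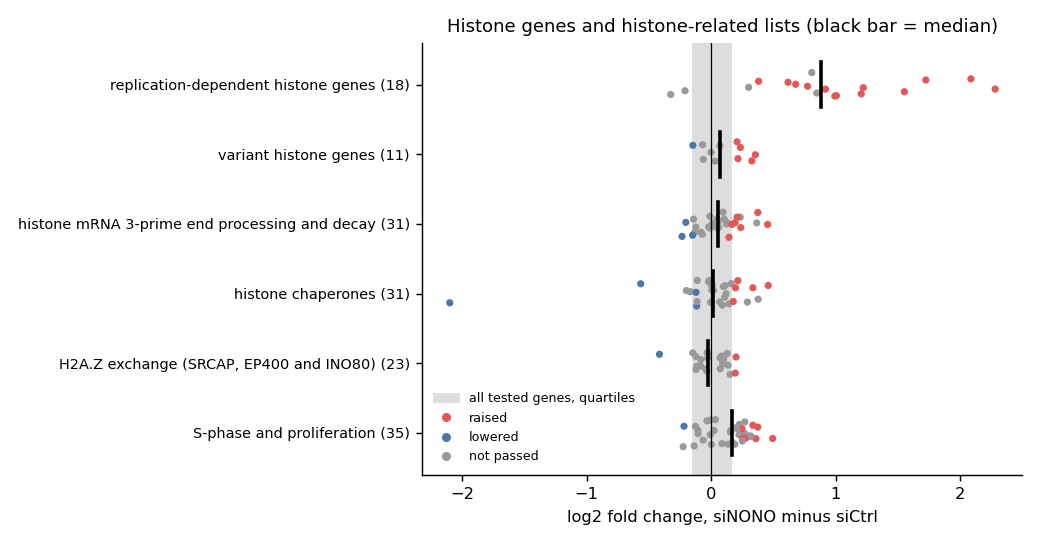
Log2 fold change, siNONO minus siCtrl, of each tested gene in the histone classes and in 4 histone-related lists, coloured by edgeR's call, with a black bar at each median and a grey band for the quartiles of all tested genes. The median of the replication-dependent histone genes (0.88) lies outside the band, and those of the variants (0.07), processing genes (0.05), chaperones (0.02) and H2A.Z exchange genes (-0.02) lie inside it, and that of the S-phase genes (0.17) lies at its edge.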

How the data were processed

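RNA from 6 libraries (3 siCtrl, 3 siNONO) was DNase-treated, poly(A)-selected and made into stranded mRNA libraries, per the labels' protocols. HISAT2, edgeR and genome build mRatBN7.2 are named in the submitters' processing notes; the sources used here give no versions, counting tool, strand setting or handling of reads that match several genes. The deposited count table holds whole-number counts per gene for 21378 genes. The deposited FPKM table covers 21081 genes; its FPKM values, which the authors divided by transcript length and library size, served for levels per length, for alternatives and to recover gene lengths from count and FPKM at 0.1 FPKM or more (98.2% of the genes tested and 100% of the tested histone genes). Columns of other samples numbered 0.

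Counts were filtered with filterByExpr, scaled by TMM and tested with edgeR 4.0.16 (quasi-likelihood, two-sided, R 4.3.3), leaving 14412 genes, with 4 residual degrees of freedom and Benjamini-Hochberg adjustment at 0.05. SE was taken from the fold change and the test's F value. CPM values are TMM-scaled, and CPM of all counts is an unscaled share of the library. Simulated counts with known changes were used to test the fits. Libraries of a group were not copies (chi-square per degree of freedom 3.33 to 8.05). Alternatives used DESeq2 1.42.0 and limma 3.58.1, and are given at the end. The members, gene lists and classes were chosen with earlier results of these data known. All tested variants, all raised replication-dependent genes, the 5 most abundant of these, and up to 2 rising and 2 falling genes per list were to be named; replication-dependent genes that did not pass, Slbp, Npat, Hfe, Abt1, rRNA and LOC genes were added after their values were seen. Figures used matplotlib 3.10.9.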

Additional observations from a re-analysis of the deposited data

How the results depend on the processing

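Leaving out 1 library at a time gave 12 to 14 raised replication-dependent genes (13 with all libraries), a median log2 fold change of 0.76 to 1.07 (0.88) and a log2 ratio of their summed share of 0.52 to 0.61 (0.55). It gave 17 to 19 raised histone genes (18), 0 to 1 lowered (1, H2az1), and a median over them of 0.38 to 0.54. For the variants it gave 0 to 1 lowered and a median of 0.05 to 0.09, and for Nono a log2 fold change of -1.74 to -1.67. For processing genes it gave 4 to 8 raised (7) and 1 to 4 lowered (3), and for chaperones 3 to 7 raised (5) and 2 to 5 lowered (4). For H2A.Z exchange genes it gave 0 to 3 raised (2) and 1 to 2 lowered (1), and for S-phase genes 4 to 6 raised (7). Over all tested genes it gave 11.4% to 15.3% raised (16.2%).

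The 1 lowered histone gene, a variant, became 0 with scaling to total library size, the replicate block, the length correction with and without that block, all 3 FPKM analyses (pseudocounts of 1 and 0.1, and at least 1 FPKM) and a threshold of 0.01. The replication-dependent median became 0.65 with no filter, 0.99 at 1 CPM or more in 3 libraries, 0.99 with the length correction, 0.98 with that and the block, 0.22 with log2(FPKM + 1) and 0.64 with log2(FPKM + 0.1), both over all 36 genes without a filter, and 0.62 at 1 FPKM or more, where 8 of the 10 genes tested were raised. Of all genes tested at 1 FPKM or more, 24.2% were raised. The median over all tested histone genes became 0.14 with log2(FPKM + 1). Lowered replication-dependent genes numbered 0 in every alternative run.

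With total library size, 65.5% of calls over all genes were rises (3174 raised, 1673 lowered), against 50.5% with TMM (2338 raised, 2292 lowered). The median of all genes shifted by 0.05 with total library size. Processing genes then had 1 lowered, chaperones 10 raised and 2 lowered, and H2A.Z exchange genes 6 raised, beside 22.0% raised over all tested genes. At a threshold of 0.01, processing genes had 4 raised and 1 lowered, and chaperones 3 and 2. H2A.Z exchange genes had 0 raised, and S-phase genes 3 raised and 0 lowered. Over all 14412 tested genes, 9.91% were raised and 1424 genes lowered at that threshold. With log2(FPKM + 1) and with log2(FPKM + 0.1), processing genes had 1 lowered, chaperones 2 lowered, H2A.Z exchange genes 5 raised and S-phase genes 0 lowered. Over all 21081 genes, 2233 were raised and 1264 lowered with the first, and 2246 and 1247 with the second. At 1 FPKM or more, chaperones had 9 raised and 1 lowered, H2A.Z exchange genes 5 raised, S-phase genes 0 lowered, and Cenpa was not tested. Of all 11092 genes tested at that level, 24.2% were raised and 1424 genes lowered. With the length correction H2A.Z exchange genes had 3 lowered, and 2 with the block as well. Over all 14412 tested genes, 2555 were lowered with that correction and 2208 with the block as well. The cause of these shifts was not tested except where the alternative's own construction is named.

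H1f10, at -0.001 with all libraries, turned to 0.0501 with total library size, 0.00263 with no filter, 0.00158 with limma-voom, 0.0393 with log2(FPKM + 1) whether or not 1 FPKM was required, and 0.0478 with log2(FPKM + 0.1). It ranged from -0.0430 to 0.0489 when 1 library was left out, and H2az2 from -0.0117 to 0.0506.

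Replicate numbers did not pair the libraries: deviations of same-numbered libraries correlated at -0.0472, -0.0861 and -0.00683. With the replicate block 18 histone genes were raised and 0 lowered, chaperones had 2 lowered, and over all genes 1894 were raised and 1863 lowered. Depth limits the 18 untested replication-dependent genes and those under 1 CPM, for which DESeq2 left some adjusted p values unset.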
